A study of Homo sapiens with 4 samples.

Results

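The matrix metalloproteinases (MMPs), the ADAM and ADAMTS proteases and their tissue inhibitors (TIMPs) were followed in human lung adenocarcinoma cells. Members were the rows of the gene table whose symbol was MMP, ADAM or ADAMTS followed by digits only, with an end letter allowed for MMP, or TIMP1 to TIMP4. The rule found 69 of the 26255 genes, namely 24 MMP, 22 ADAM, 19 ADAMTS and 4 TIMP genes. All 4 libraries hold RNA of A549, an established human lung adenocarcinoma line, with 1 library per group. The acinar tumor library and the solid tumor library came from laser microdissection of A549 xenografts grown in immunodeficient mice. An acinar tumor forms gland-like structures and a solid tumor grows as sheets. The mix culture library and the single culture library came from GFP-labelled A549 cells, sorted out of colonies grown in 3D with and without cancer-associated fibroblasts (CAFs), the mix being read as the culture with them. The labels do not say whether acinar and solid cells shared a tumor or a mouse, which strain of mouse carried them, or where the CAFs came from.

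MMPs, ADAMs and ADAMTSs are zinc-dependent enzymes that are made as inactive precursors. MMPs cut collagens and other matrix proteins, membrane ADAMs release the outer parts of growth factors, receptors and adhesion molecules, and ADAMTSs act on proteoglycans, procollagen and other matrix proteins. TIMPs bind the active site of these enzymes, and TIMP2 also takes part in the activation of MMP2 by MMP14. In a carcinoma much of this activity is usually ascribed to stromal cells, with MMP7 as a protease that epithelial cells make themselves.

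The values are fragments per gene divided by a size factor per library, shown here as scaled counts, a scale close to counts per 1000000. A scaled count of 1 stood for about the same share of RNA in each library, but rested on different depths, estimated at 6630000 fragments in the acinar tumor, 7270000 in the solid tumor, 12180000 in the mix culture and 10970000 in the single culture. The limit that 0 fragments allow (3 fragments) was 0.465, 0.42, 0.242 and 0.267 scaled counts in that order of libraries. No group has a replicate, so no p-value can be given and "higher" and "lower" describe these libraries. In such bulk libraries, fewer cells of a kind and less RNA per cell cannot be told apart. The keratin gene KRT8 (4510, 4060, 2540 and 2450 scaled counts) and the A549-typical ALDH1A1 were high throughout, while the lung lineage genes NKX2-1 and SFTPC stayed below 1 in all 4 libraries.

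Of the 69 members, 38 reached 1 scaled count in at least one library, where 14561 of all 26255 genes did. Another 15 members stayed below 1 in all 4, and 16 had no fragment in any. In single libraries, 33 members reached 1 in the acinar tumor, 29 in the solid tumor, 29 in the mix culture and 31 in the single culture. Of all genes, 13467, 13638, 13057 and 13256 did so in that order. By family, 4 of 4 TIMPs, 13 of 24 MMPs, 12 of 22 ADAMs and 9 of 19 ADAMTSs were at 1 or more. The protease families were thus near the share of all genes. All 6 membrane-anchored MMPs outside the MMP23 pair reached 1, as did 8 of 9 ADAMs classed here as proteolytic. The 3 ADAMs classed here as non-catalytic, ADAM11, ADAM22 and ADAM23, also reached 1. Of the 10 other ADAMs, mostly known from the reproductive tract and not sorted here by catalytic activity, 1 did.

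Genes below the limit included well-known secreted proteases. MMP3 (stromelysin-1), MMP12 (macrophage elastase) and MMP13 (collagenase-3) stayed below 1 everywhere, and MMP8 (neutrophil collagenase) had no fragment. MMP26 also had none, nor did MMP23A and MMP23B, near-identical copies whose fragments a counter may not be able to assign. The proteoglycan-cleaving ADAMTS4 and ADAMTS5 were at 0 in all 4 libraries, and their relative ADAMTS1 had 0 scaled counts in the acinar tumor, 0.42 in the solid tumor, 0.161 in the mix culture and 0 in the single culture. Also below 1 in every library were MMP20, MMP21 and MMP27, the ADAMTS genes ADAMTS2, ADAMTS3, ADAMTS8, ADAMTS17 and ADAMTS18, and ADAM20 and ADAM21. Without a fragment in any were ADAMTS19, ADAMTS20, ADAM2, ADAM5, ADAM6, ADAM7, ADAM18, ADAM29, ADAM30 and ADAM33. The highest value among the 31 members under the limit was 0.598, for MMP19. At these depths such genes were at or near the limit of detection and not shown to be absent.

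Levels of different genes can be compared only per length. On scaled counts per kilobase of exon, averaged over the 4 libraries, TIMP1 stood highest at 411, followed by ADAM15 at 73.8, TIMP2 at 63.4, ADAM9 at 56.8 and MMP7 at 53.9. ADAMTS10 led its family at 22.2 per kilobase, and the next ADAMTS genes were ADAMTS9 at 2.55, ADAMTS7 at 1.47, ADAMTS15 at 1.46 and ADAMTS13 at 0.741. Among the MMPs, MMP7 was followed by MMP17 at 14.5, MMP24 at 13.8, MMP2 at 12.8 and MMP28 at 6.96 per kilobase. The MMP24 value rests on fractional fragments, which may not be told apart from those of its antisense partner MMP24-AS1. The ADAM order after ADAM15 and ADAM9 was ADAM10 at 13.7, ADAM17 at 9.48 and ADAM19 at 8.4. Means over the libraries hide wide spreads for several of these genes, which the plot of levels shows.

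**Figure D1:**
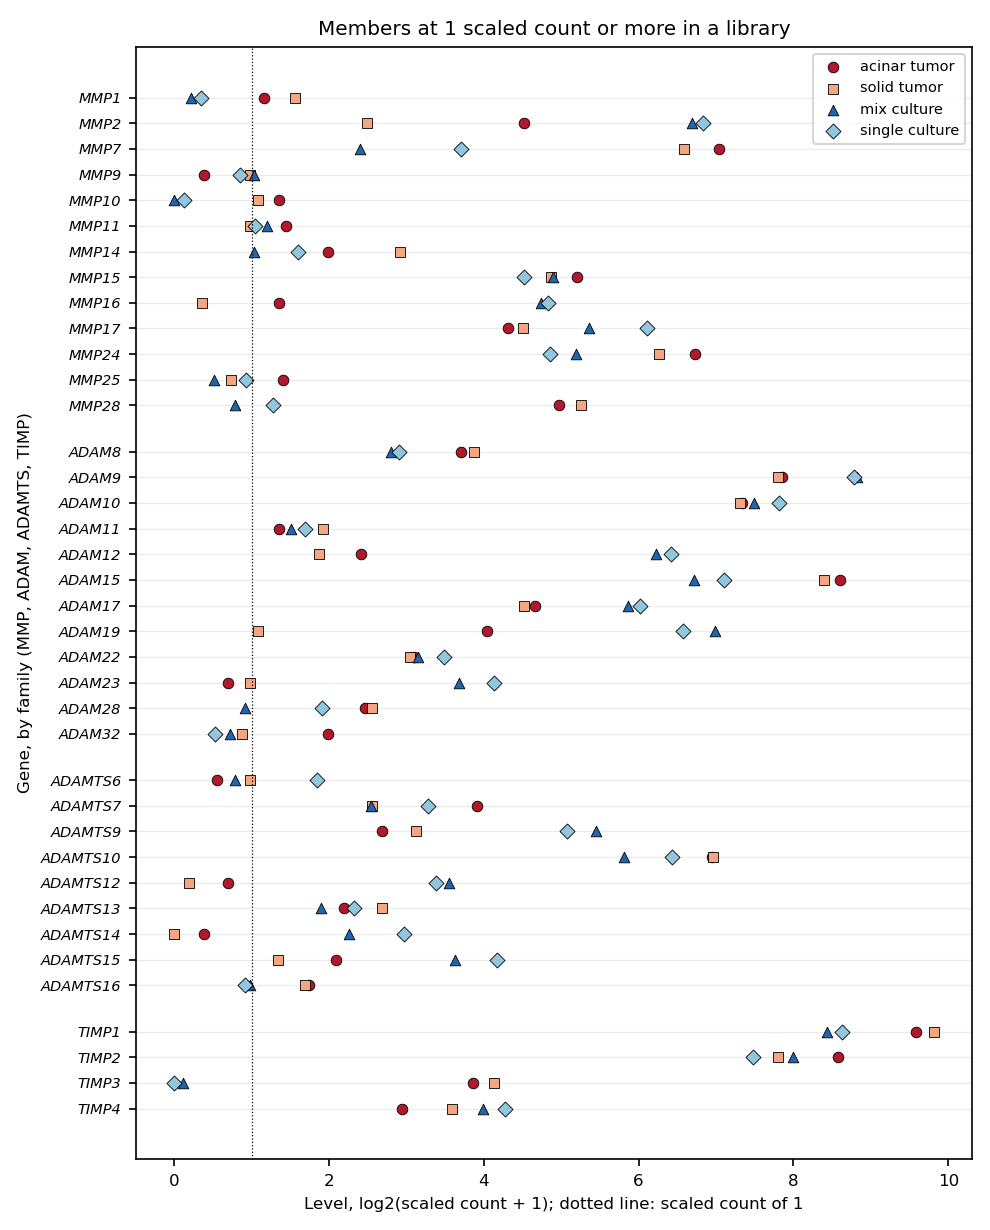
Level of each of the 38 members at 1 scaled count or more, as log2(scaled count + 1), in the acinar tumor, solid tumor, mix culture and single culture; each symbol is 1 library and the dotted line marks 1 scaled count. TIMP3, MMP7 and MMP28 have both tumors far to the right of both cultures, and ADAM12, ADAM23 and MMP16 have both cultures far to the right.

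The 4 inhibitors differed between the libraries in opposite ways. TIMP1, which inhibits most MMPs, had 763 scaled counts in the acinar tumor, 900 in the solid tumor, 346 in the mix culture and 393 in the single culture. Both tumors were above both cultures, and the nearest pair of a tumor and a culture differed 1.94-fold (95% counting interval 1.86 to 2.02). Within each pair TIMP1 was slightly lower in the first library, 1.18-fold in acinar against solid tumor (interval 1.14 to 1.22) and 1.13-fold in mix against single culture (interval 1.09 to 1.18). These intervals, like all below, cover counting error only.

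TIMP2, the inhibitor that also assists MMP2 activation, had 380 scaled counts in the acinar tumor and 222 in the solid tumor, and 254 in the mix culture and 177 in the single culture. It was thus higher in acinar than in solid tumor by 1.71-fold (interval 1.61 to 1.83) and higher in mix than in single culture by 1.44-fold (interval 1.36 to 1.52). TIMP2 had the highest mix-over-single log2 ratio of any measured member, 0.52. The tumor and culture values overlapped, the solid tumor lying below the mix culture.

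TIMP3, a matrix-bound inhibitor that also acts on ADAM17 and ADAMTS proteases, had 13.5 scaled counts in the acinar tumor and 16.6 in the solid tumor, from 87 and 119 fragments. The mix culture had 0.0805, from 1 fragment, and the single culture 0. It was therefore detected clearly in the tumors alone of these 4 libraries, and the ratio of the acinar tumor to the mix culture was 168, with a counting interval of 29.3 to 6690. TIMP4, an inhibitor best known from heart, ran the other way, with 6.67 scaled counts in the acinar tumor, 11 in the solid tumor, 14.9 in the mix culture and 18.4 in the single culture. Its acinar value was 1.66-fold below solid (interval 1.13 to 2.46) and its mix value 1.24-fold below single culture (interval 1.01 to 1.51).

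Acinar was compared with solid tumor to ask which of these genes go with gland-like growth. Here 33 members were measured, meaning that one tumor or the other reached 1 scaled count, and past 2-fold means a ratio of at least 2 after adding 1 to both values. ADAM19, MMP2, ADAMTS7 and ADAM32 were past 2-fold higher in the acinar tumor, 4 of 33 (12.1%), where 1.98% of all 13979 measured genes were. No member was past 2-fold lower, where 2.55% of all genes were. The median log2 ratio of the members was 0.06 and that of all measured genes 0.01, with 20 members above 0 and 13 below. Of all measured genes, 7098 lay above 0 and 6881 below.

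ADAM19 (meltrin beta), a membrane protease that acts on neuregulin, had 15.5 scaled counts in the acinar tumor and 1.12 in the solid tumor, from 100 and 8 fragments. The gap was 13.9-fold (interval 6.77 to 33). Yet the acinar value was itself far below the cultures, which had 126 in the mix and 94.1 in the single culture. MMP2 (gelatinase A), which cuts denatured collagen and basement membrane collagen, also lay lowest in the solid tumor and highest in the cultures. It had 21.9 scaled counts in the acinar tumor, 4.61 in the solid tumor, 102 in the mix culture and 113 in the single culture. Its acinar-over-solid ratio was 4.74 (interval 3.22 to 7.15), and its mix value was 1.1-fold below the single culture (interval 1.02 to 1.19).

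ADAMTS7, which cuts the cartilage protein COMP, had 14 scaled counts in the acinar tumor, 4.89 in the solid tumor, 4.83 in the mix culture and 8.71 in the single culture. Its ratio was 2.85 (interval 1.91 to 4.34) in acinar over solid tumor, and the solid value lay close to that of the mix culture. ADAM32, an ADAM known mainly from testis, had 2.95 in the acinar tumor and 0.839 in the solid tumor, from 19 and 6 fragments, a ratio of 3.51 (interval 1.35 to 10.7). With 5 added to the values in place of 1, ADAMTS7 and ADAM32 were within 2-fold, while ADAM19 and MMP2 were past it.

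Members near the 2-fold limit stood on few fragments. MMP16, a membrane-type MMP (MT3-MMP), had 1.55 scaled counts in the acinar tumor and 0.28 in the solid tumor, from 10 and 2 fragments, and its log2 ratio after adding 1 was 0.99. MMP14 (MT1-MMP), which activates MMP2 and cuts fibrillar collagen, was the lowest member at -0.94, with 2.95 in the acinar tumor and 6.57 in the solid tumor, a 2.23-fold lower value (interval 1.28 to 4.03). MMP14 and MMP2, enzyme and substrate of one activation step, thus lay on opposite sides in the acinar tumor.

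The sheddases with the widest known range of targets hardly differed between the tumors. ADAM10, which cuts Notch receptors and cadherins, had 160 scaled counts in the acinar tumor and 157 in the solid tumor (ratio 1.02, interval 0.934 to 1.11). ADAM17 (TACE), which releases TNF and EGF receptor ligands, had 24.3 in the acinar tumor and 22 in the solid tumor (ratio 1.11, interval 0.883 to 1.39), and ADAM9 had 231 in the acinar tumor and 222 in the solid tumor (ratio 1.05, interval 0.973 to 1.12). All 3 intervals include 1 and reach to at most 1.39-fold. ADAM15, a membrane protease with an integrin-binding site, was 1.15-fold higher in the acinar tumor (interval 1.09 to 1.22).

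**Figure D2:**
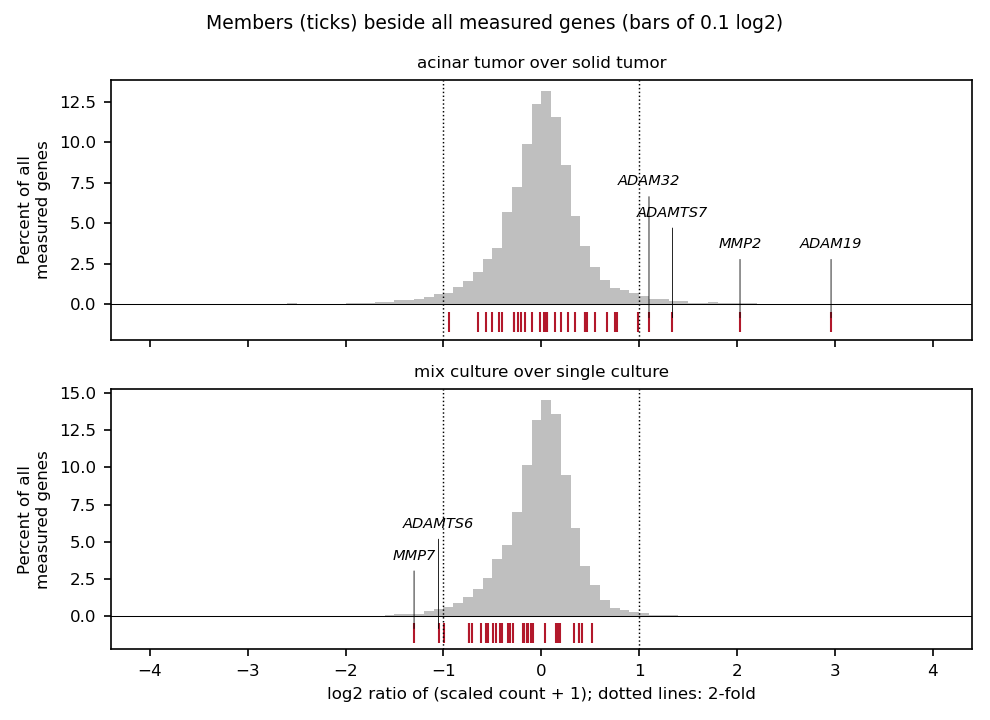
Grey bars give the percent of all measured genes per step of 0.1 in the log2 ratio of (scaled count + 1), for acinar over solid tumor (top) and mix over single culture (bottom); red ticks are the 33 and 32 measured members and dotted lines mark 2-fold. Named ticks lie past 2-fold, 4 to the right in the tumors and 2 to the left in the cultures.

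Mix was compared with single culture to ask what growth with CAFs goes with in the A549 cells. None of the 32 measured members was past 2-fold higher in the mix culture, where 0.682% of all 13485 measured genes were. MMP7 and ADAMTS6 were past 2-fold lower, 2 of 32 (6.25%), where 1.74% of all genes were. More members lay below 0 than above, 23 against 9, where 6474 of all measured genes lay below and 7011 above. The members' median log2 ratio was -0.24, where that of all measured genes was 0.01. Without the limit of 1 scaled count, the members' median was -0.12. Below 0 were 6 of 8 ADAMs classed as proteolytic, 3 of 3 classed as non-catalytic and 3 of 5 membrane-anchored MMPs. So were 4 of 5 ADAMTSs outside the proteoglycan-cleaving and procollagen-processing classes.

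MMP7 (matrilysin), which lacks the hemopexin domain of most other MMPs, had 131 scaled counts in the acinar tumor, 95.4 in the solid tumor, 4.27 in the mix culture and 12 in the single culture. The culture values rested on 53 and 135 fragments and were small beside those of the tumors. The mix culture was 2.81-fold below the single culture (interval 2.03 to 3.94), while the acinar tumor was 1.37-fold above the solid tumor (interval 1.24 to 1.52). ADAMTS6, a relative of the fibrillin-binding ADAMTS10, had 0.725 in the mix culture and 2.58 in the single culture, from 9 and 29 fragments, and was 3.56-fold lower (interval 1.64 to 8.54). With 5 added in place of 1, MMP7 and ADAMTS6 were both within 2-fold. ADAM28 lay just inside the limit at a log2 ratio of -0.99, with 0.886 in the mix culture and 2.76 in the single culture.

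Several well-counted proteases were lower in the mix culture by less than 2-fold. MMP17, an MMP held in the membrane by a GPI anchor, had 40.2 scaled counts in the mix culture and 67.8 in the single culture, 1.69-fold lower (interval 1.51 to 1.89). ADAMTS10, known for its role in fibrillin microfibrils, had 55 in the mix culture and 85.1 in the single culture, 1.55-fold lower (interval 1.4 to 1.71). ADAM15 had 104 in the mix culture and 137 in the single culture, 1.32-fold lower (interval 1.22 to 1.42), and ADAM10 had 179 in the mix culture and 224 in the single culture, 1.25-fold lower (interval 1.18 to 1.33). ADAMTS7 was 1.8-fold lower in the mix culture (interval 1.29 to 2.53), so this gene too was higher in the acinar tumor and lower in the mix culture.

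The 9 members above 0 were led by TIMP2 and ADAM19. ADAM19 was 1.34-fold higher in the mix culture (interval 1.24 to 1.45), and the membrane-type MMP15 had 28.7 scaled counts in the mix culture and 21.9 in the single culture (ratio 1.31, interval 1.11 to 1.55). ADAMTS9, a proteoglycan-cleaving protease, had 42.8 in the mix culture and 32.7 in the single culture, a ratio of 1.31 (interval 1.14 to 1.5). ADAM9 barely differed, at 453 in the mix culture and 441 in the single culture (ratio 1.03, interval 0.988 to 1.07). MMP9 (gelatinase B) was near the limit throughout, with 0.31 in the acinar tumor, 0.979 in the solid tumor, 1.05 in the mix culture and 0.8 in the single culture, and its mix-over-single ratio of 1.31 had an interval of 0.517 to 3.47.

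The 2 comparisons share no library, and 27 members were measured in both. Of these, 6 (22.2%) lay above 0 in both and 10 (37%) below 0 in both, where 29.8% and 26% of the 12903 genes measured in both did. Another 10 (37%) were higher in the acinar tumor and lower in the mix culture, and 1 (3.7%) was the reverse, where 21.5% and 22.7% of all those genes were. ADAM19, MMP15, MMP24, MMP11, TIMP2 and ADAM9 were the members above 0 in both. The counting intervals of ADAM9 and MMP11 include 1 in both comparisons, and MMP24, with fractional fragments, has no interval. No member was past 2-fold in both comparisons, and 0.457% of all those genes were.

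**Figure D3:**
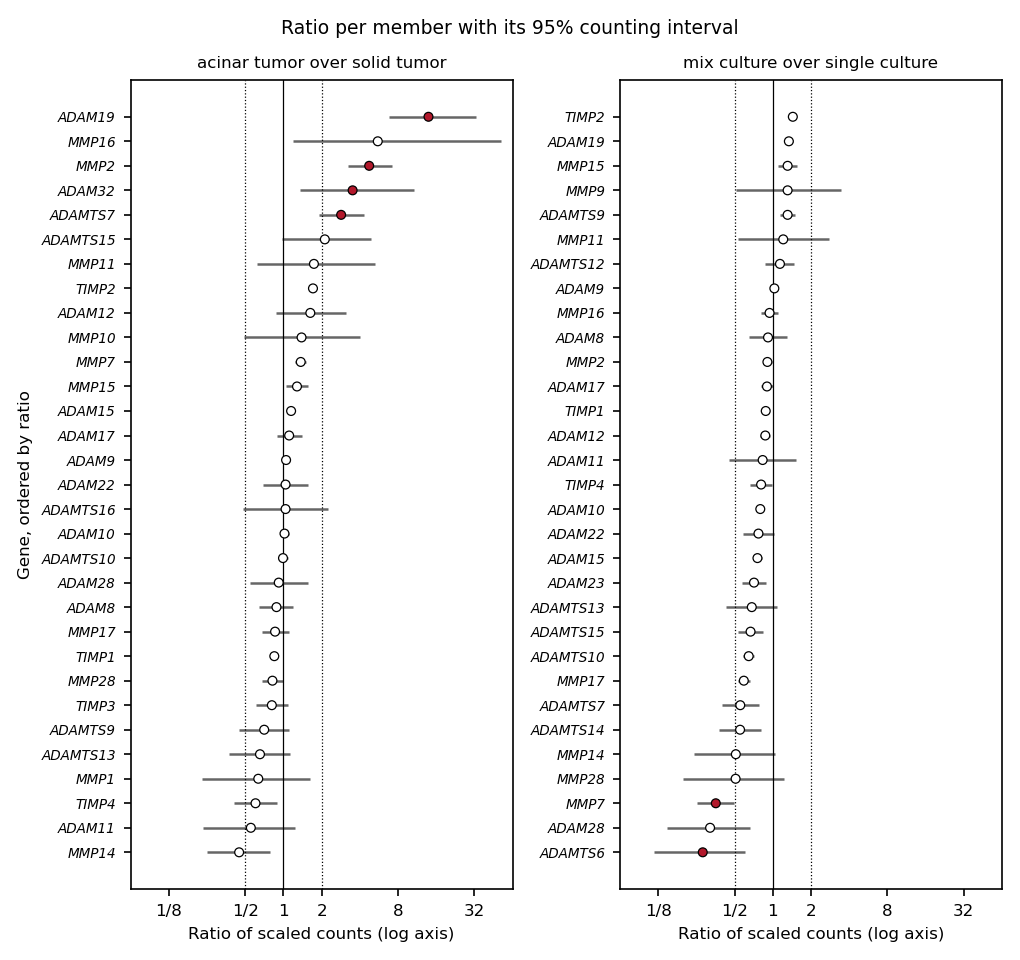
Ratio of scaled counts per member on a log axis, acinar over solid tumor (left) and mix over single culture (right), with the exact 95% counting interval as a line; members with fractional fragments are left out, and filled points are past 2-fold after adding 1 to both values. ADAM19 at 13.9 and MMP2 at 4.74 lie highest among the filled points on the left, and MMP7 at 0.356 and ADAMTS6 at 0.281 are the filled points on the right.

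Tumors and cultures were set side by side with the strictest pairing, the lower tumor against the higher culture for a gene higher in tumors and the reverse for a gene lower in tumors. These settings also differ in how cells were isolated, microdissection against sorting, so setting and isolation cannot be told apart. On this scale 5 of 38 members (13.2%) were past 2-fold higher in both tumors, where 9.67% of all 14561 measured genes were. Past 2-fold lower were 10 of 38 members (26.3%), where 8.22% of all genes were. Log2 ratios of the nearest libraries ran between -3.81 and 3.75, those of acinar over solid tumor between -0.94 and 2.96, and those of mix over single culture between -1.30 and 0.52. Of 8 epithelial and A549 markers measured, 3 were also past 2-fold higher in both tumors. KRT19 had 818 scaled counts in the acinar tumor, 607 in the solid tumor, 15.1 in the mix culture and 33.4 in the single culture, EPCAM had 28.1, 20.3, 2.09 and 2.31 in that order, and AKR1C1 had 181, 198, 59.3 and 60.3. Their part in the members' differences was not tested.

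Higher in both tumors were TIMP3, MMP28, MMP7, ADAM15 and MMP24. MMP28 (epilysin), an MMP of skin and other epithelia, had 30.4 scaled counts in the acinar tumor, 37.1 in the solid tumor, 0.725 in the mix culture and 1.42 in the single culture. The acinar tumor was 21.4-fold above the single culture (interval 12.8 to 38.1). The solid tumor exceeded the single culture in MMP7 by 7.95-fold (interval 6.6 to 9.63). ADAM15 had 387 in the acinar tumor, 336 in the solid tumor, 104 in the mix culture and 137 in the single culture, and its nearest values differed 2.45-fold (interval 2.29 to 2.61). MMP24 (MT5-MMP), a membrane-type MMP known from brain, had 105, 75.6, 35.5 and 28 in the same order of libraries. Its fragments were fractional, and its antisense partner MMP24-AS1 had 164, 165, 43 and 55.6, so reads of this pair may not be told apart.

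Lower in both tumors were 4 membrane ADAMs, MMP2, MMP16 and 4 ADAMTSs. ADAM12 (meltrin alpha), a protease that acts on EGF family ligands, had 4.34 scaled counts in the acinar tumor, 2.66 in the solid tumor, 73.8 in the mix culture and 84.3 in the single culture. Its acinar value was 17-fold below the mix culture (interval 11.7 to 25.7), and its log2 ratio of -3.81 was the lowest of all members. ADAM23, a non-catalytic ADAM that binds the secreted protein LGI1, had 0.62 in the acinar tumor, 0.979 in the solid tumor, 11.8 in the mix culture and 16.6 in the single culture, 12.1-fold apart in the nearest pair (interval 5.72 to 30.6). ADAM17 had 24.3 in the acinar tumor, 22 in the solid tumor, 57.4 in the mix culture and 63.7 in the single culture, and the acinar tumor lay 2.36-fold below the mix culture (interval 1.98 to 2.82).

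ADAM19 and MMP2 were the members past 2-fold both between the tumors and between tumors and cultures. The acinar tumor, the nearer of the tumors, was 6.07-fold below the single culture in ADAM19 (interval 4.94 to 7.53) and 4.68-fold below the mix culture in MMP2 (interval 3.93 to 5.62). MMP16 had 1.55 scaled counts in the acinar tumor, 0.28 in the solid tumor, 25.8 in the mix culture and 27.3 in the single culture, and its acinar value was 16.6-fold below the mix culture (interval 8.92 to 35). The tumors thus held less RNA of these genes than the cultures, with the acinar tumor on the culture side of the solid tumor in all 3.

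The ADAMTS genes lower in tumors belong to different role groups. ADAMTS9 had 5.43 scaled counts in the acinar tumor, 7.69 in the solid tumor, 42.8 in the mix culture and 32.7 in the single culture, and its nearest values differed 4.26-fold (interval 3.2 to 5.75). ADAMTS15, another proteoglycan-cleaving protease, had 3.26, 1.54, 11.4 and 17 in the same order, 3.49-fold apart (interval 2.2 to 5.81). ADAMTS12, a relative of ADAMTS7, had 0.62, 0.14, 10.7 and 9.42 in that order, 15.2-fold apart (interval 5.76 to 56.8), although ADAMTS7 itself overlapped between the settings. ADAMTS14, a procollagen-processing protease, had 0.31 in the acinar tumor, 0 in the solid tumor, 3.78 in the mix culture and 6.84 in the single culture, 12.2-fold apart in the nearest pair (interval 3.2 to 104). With 5 added in place of 1, ADAMTS15, ADAMTS14 and, among the genes higher in tumors, MMP24 were within 2-fold.

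**Figure D4:**
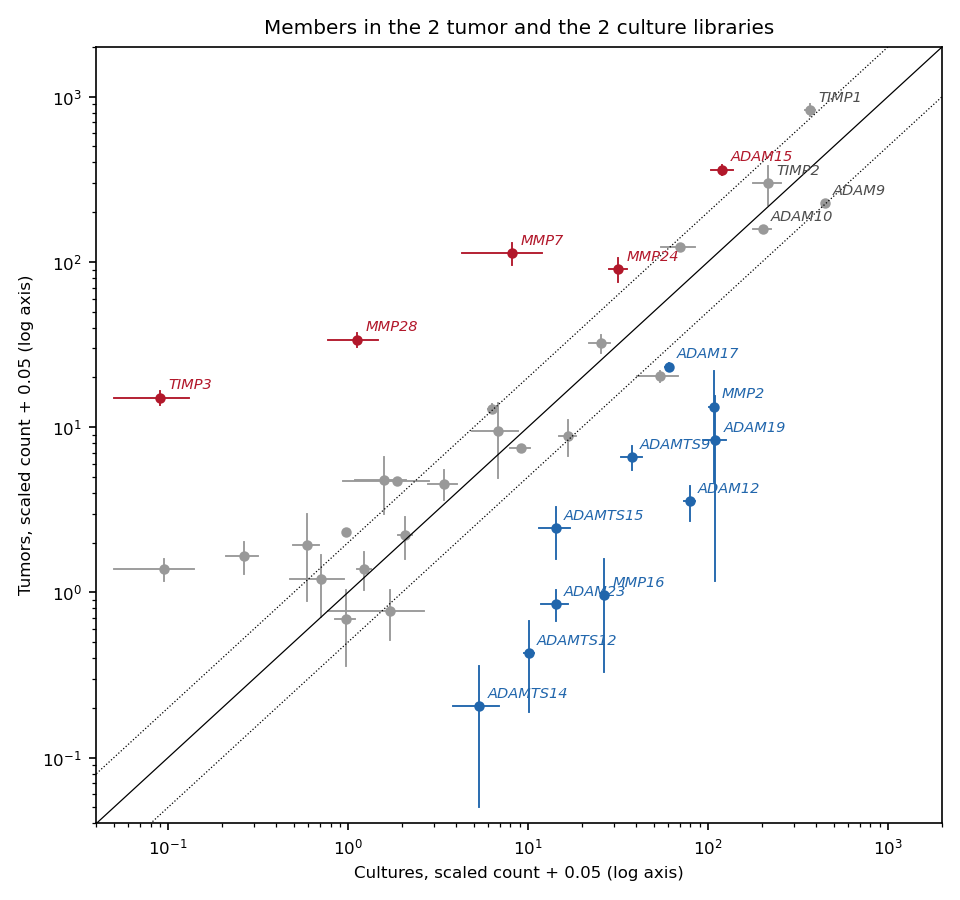
Each point is 1 of the 38 members, with the mean of the 2 tumor libraries on the vertical and of the 2 culture libraries on the horizontal log axis, both in scaled counts with 0.05 added; bars span the libraries of a setting, the full line marks equality and dotted lines 2-fold. The 5 members in red are past 2-fold higher and the 10 in blue past 2-fold lower in both tumors, by the nearest pair of a tumor and a culture. By that pair ADAM9 (1.91-fold lower) and TIMP1 (1.94-fold higher) were just within 2-fold. The plotted means of TIMP1, 831 in tumors and 369 in cultures, lie past the dotted line.

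Other members stayed within 2-fold between the settings once 1 was added to both values. ADAM8, a sheddase known from leukocytes, had 12.1 scaled counts in the acinar tumor, 13.7 in the solid tumor, 5.96 in the mix culture and 6.49 in the single culture, a nearest gap of 1.86-fold (interval 1.34 to 2.6). ADAM28 had 4.5 in the acinar tumor and 4.89 in the solid tumor, and both lay above both cultures. The non-catalytic ADAM22, a partner of LGI1 in neurons, was nearly level at 7.6, 7.27, 7.89 and 10.2 in the same order of libraries, and its relative ADAM11 lay between 1.55 and 2.8. These contrast with ADAM23 of the same group, which was lower in both tumors. ADAMTS13, which cuts von Willebrand factor, had 3.57 in the acinar tumor, 5.45 in the solid tumor, 2.74 in the mix culture and 4 in the single culture, so the settings overlapped. ADAMTS16 had 2.33, 2.24, 0.966 and 0.889 in that order, and its plain ratio in the nearest pair was 2.32 (interval 1.03 to 5.36). MMP11 (stromelysin-3), usually ascribed to stromal fibroblasts, lay between 0.979 and 1.71 in all 4 libraries. MMP25, a GPI-anchored MMP of leukocytes, had at most 1.64, in fractional fragments beside its antisense partner MMP25-AS1 at 2.15 to 4.71. MMP17 was lower in both tumors, with 18.8 in the acinar tumor and 21.8 in the solid tumor, 1.84-fold below the cultures in the nearest pair (interval 1.54 to 2.22).

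The promoters of 4 members that lay far apart between the settings are shown for their letters. They are the bases before the start of the gene in RefSeq on GRCh38.p14, 5′ to 3′ on the gene's strand. Capitals mark the 3 motifs searched on both strands, of which no 2 matches overlap. The AP-1 site was searched as TGAGTCA, the letters bound by FOS and JUN proteins. The TATA box was searched as TATAAA, which lies upstream of the start in many tightly regulated genes. The GC box was searched as GGGCGG, the letters bound by SP1 and its relatives. MMP7 (minus strand, chr11:102530748-102530997) and TIMP3 (plus strand, chr22:32801455-32801704) were higher in tumors, and ADAM12 (minus strand, chr10:126388478-126388727) and ADAM19 (minus strand, chr5:157575776-157576025) were lower.
MMP7: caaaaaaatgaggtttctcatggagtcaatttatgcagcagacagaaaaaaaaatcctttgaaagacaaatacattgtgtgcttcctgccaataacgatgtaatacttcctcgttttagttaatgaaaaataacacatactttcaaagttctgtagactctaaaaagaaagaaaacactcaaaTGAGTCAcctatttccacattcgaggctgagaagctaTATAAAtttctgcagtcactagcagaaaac
TIMP3: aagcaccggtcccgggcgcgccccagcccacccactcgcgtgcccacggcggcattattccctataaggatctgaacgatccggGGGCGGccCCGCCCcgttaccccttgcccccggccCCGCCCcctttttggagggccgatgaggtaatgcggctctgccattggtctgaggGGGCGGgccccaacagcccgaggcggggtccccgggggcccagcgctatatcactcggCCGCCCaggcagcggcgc
ADAM12: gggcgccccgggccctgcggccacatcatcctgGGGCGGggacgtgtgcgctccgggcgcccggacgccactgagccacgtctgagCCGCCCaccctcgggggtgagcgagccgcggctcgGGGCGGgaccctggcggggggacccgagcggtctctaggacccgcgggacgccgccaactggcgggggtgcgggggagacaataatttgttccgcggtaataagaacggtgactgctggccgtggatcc
ADAM19: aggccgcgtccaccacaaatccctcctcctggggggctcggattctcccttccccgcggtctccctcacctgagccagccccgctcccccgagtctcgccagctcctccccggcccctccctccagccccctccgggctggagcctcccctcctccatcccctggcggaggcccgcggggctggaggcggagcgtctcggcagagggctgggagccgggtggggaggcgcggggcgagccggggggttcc

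MMP7 holds the AP-1 letters, whose first base lies 67 bases before the start, and TATA letters at 30. TIMP3 holds 5 GC boxes and ADAM12 holds 3, while ADAM19 holds none of the 3 motifs in this window. Promoters were given for 39 of the 69 members. Over these, 1 (2.56%) held the AP-1 letters, 7 (17.9%) the TATA letters and 26 (66.7%) a GC box, where 4.16%, 11.1% and 42.3% of all 27305 promoters of this length did. MMP7 was the member with the AP-1 letters. Of the 6 members lower in tumors with a promoter given, 5 held a GC box, and of the 4 higher in tumors, 3 did. These matches describe letters and not binding.

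MMP7 is also the end of a run of 9 MMP genes that neighbour each other on chromosome 11, counting protein-coding genes only. In chromosomal order they are MMP7, MMP20, MMP27, MMP8, MMP10, MMP1, MMP3, MMP12 and MMP13, and 3 of them reached 1 scaled count. MMP10 (stromelysin-2) had 1.55 scaled counts in the acinar tumor, 1.12 in the solid tumor, 0 in the mix culture and 0.0889 in the single culture. MMP1 (interstitial collagenase) had 1.24, 1.96, 0.161 and 0.267 in the same order of libraries. All 3 were higher in both tumors than in both cultures, by 12.6-fold in the nearest pair for MMP10 (interval 1.69 to 559) and 4.65-fold for MMP1 (interval 1.12 to 27.2), on 1 and 3 culture fragments. The other 6 genes stayed below 1 everywhere.

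**Figure D5:**
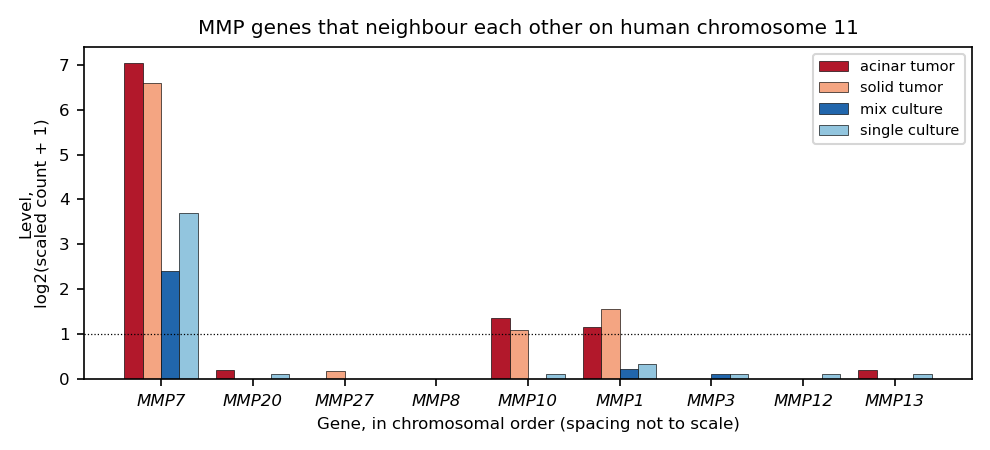
Bars give log2(scaled count + 1) of the 9 neighbouring MMP genes of chromosome 11, in chromosomal order and not to scale, in the acinar tumor, solid tumor, mix culture and single culture; the dotted line marks 1 scaled count. MMP7, MMP10 and MMP1 stand above the line in both tumors, and MMP7 does so in the cultures too.

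Other members also lie beside each other when only protein-coding genes are counted. ADAM9 and ADAM32 lie in a run of 4 ADAM genes on chromosome 8 with ADAM18 and ADAM2, which had no fragment in any library. ADAMTS15 neighbours ADAMTS8, which stayed below 1 everywhere. ADAMTS1 and ADAMTS5 on chromosome 21 were both below 1, as were ADAM21 and ADAM20 on chromosome 14.

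Genes that control or are cut by these proteases were counted by list, with the same 2-fold limit. Of all measured genes, 1.98% were past 2-fold higher and 2.55% lower in acinar over solid tumor. The shares were 0.682% and 1.74% in mix over single culture, and 9.67% and 8.22% in tumors over cultures. Of 13 regulators of shedding, which activate precursors or escort ADAM10 and ADAM17, TSPAN5 was past 2-fold higher in the acinar tumor (18.6 against 8.53 scaled counts in the solid tumor) and PCSK5 past 2-fold lower (1.71 against 5.87). TSPAN5 is a tetraspanin that binds ADAM10, and PCSK5 is a proprotein convertase. In the mix culture, PCSK6, another such convertase, was the regulator past 2-fold, with 45.8 scaled counts against 106 in the single culture. RHBDF1 (iRhom1), which escorts ADAM17, was past 2-fold higher in both tumors, with 105 in the acinar tumor, 90.6 in the solid tumor, 26.8 in the mix culture and 24.9 in the single culture. TSPAN33 was the other regulator higher in tumors, and none was past 2-fold lower there.

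Among 24 proteins shed by ADAMs, 21 were measured in the tumors. CDH2 (N-cadherin, an ADAM10 target), L1CAM and CX3CL1 were past 2-fold higher in the acinar tumor, with CDH2 at 86.5 scaled counts against 23.5 in the solid tumor. NOTCH3, CXCL16 and EGF were past 2-fold lower, with CXCL16, a chemokine shed by ADAM10, at 7.44 in the acinar tumor and 21.1 in the solid tumor. None of the 19 measured in the cultures was past 2-fold in mix over single culture, where 0.682% of all genes were higher and 1.74% lower. NRG1, a growth factor shed by ADAM17 and ADAM19, was lower in both tumors, with 14.9 in the acinar tumor, 8.11 in the solid tumor, 65.8 in the mix culture and 63.7 in the single culture. EREG, NOTCH2 and TNFRSF1A were also past 2-fold lower in both tumors, and SDC4 was past 2-fold higher.

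Of 17 ADAMTS relatives and matrix substrates, 10 were measured in each pair. VCAN (versican, cut by ADAMTS1, ADAMTS9 and ADAMTS15) had 733 scaled counts in the acinar tumor, 311 in the solid tumor, 146 in the mix culture and 75.9 in the single culture. VCAN and THBS1 were past 2-fold higher in the acinar tumor, and FN1 and FBLN1 past 2-fold lower. FN1 (fibronectin) was the list's gene past 2-fold lower in the mix culture, at 1140 against 3390 in the single culture. In both tumors VCAN, ADAMTSL5 and PAPLN were past 2-fold higher, and FN1, FBN1 and FBLN1 past 2-fold lower, while ADAMTS9 and ADAMTS15 were lower there.

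Of 15 entries for control of metalloproteinases outside the families, 14 matched a row and 11 were measured in each pair. None was past 2-fold between the tumors, where 1.98% of all genes were higher and 2.55% lower. Past 2-fold higher in both tumors than in both cultures were 4 of 12, where 9.67% of all genes were. In the mix culture TFPI2, a serine protease inhibitor of the matrix, was higher at 83.7 scaled counts against 27.2 in the single culture, and PLAU was also past 2-fold higher. LCN2 (lipocalin-2, which binds MMP9) had 485 in the acinar tumor, 447 in the solid tumor, 1.05 in the mix culture and 9.15 in the single culture. LCN2 and SPOCK1 were past 2-fold lower in the mix culture. LRP1, a receptor that clears MMPs and TIMPs from the cell surface, was lower in both tumors, with 58.9 in the acinar tumor, 95.1 in the solid tumor, 301 in the mix culture and 328 in the single culture.

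Since fibroblasts are a known source of MMP2, ADAM12, ADAM19 and TIMP3, fibroblast markers were read beside these values. Of 12 markers, 4 reached 1 scaled count in each library, and their summed level was 96.1 in the acinar tumor, 59.9 in the solid tumor, 47.2 in the mix culture and 44.9 in the single culture. COL1A1 was at 30.7, 32.3, 29.5 and 19.3 in that order, and COL3A1 at 0.31, 1.12, 0.564 and 0.356, but COL1A2, DCN and PDGFRB stayed below 1 everywhere and POSTN had no fragment. Of 7 markers measured, 1 was past 2-fold higher in both tumors and 2 were lower, where 9.67% and 8.22% of all genes were. LUM was the higher one, with 55.4 in the acinar tumor, 19.6 in the solid tumor, 0.0805 in the mix culture and 0 in the single culture. The lower ones were THY1, with 0, 0, 2.01 and 1.33 in the same order, and PDGFRA, with 0, 0, 1.13 and 1.96. Both reached 1 scaled count in the cultures alone. Between the tumors, 2 of 5 measured markers were past 2-fold higher in the acinar tumor. These were LUM and FAP, the latter at 2.17 in the acinar tumor and 0.42 in the solid tumor. Past 2-fold lower were 0 of 5, where 1.98% of all genes were higher and 2.55% lower. In the single culture, read as the one without CAFs, MMP2 had 113 scaled counts, ADAM12 84.3 and ADAM19 94.1. The leukocyte markers summed to 146 in the acinar tumor, 239 in the solid tumor, 44 in the mix culture and 49.9 in the single culture, mostly CD68 and LYZ. Of 5 leukocyte markers measured, 3 (CD68, LYZ and ITGAM) were past 2-fold higher in both tumors, where 9.67% of all genes were. CD14 was lower in both tumors, at 2.64, 9.65, 13.4 and 15.4 in the same order of libraries. CD14 and LYZ, 2 of 5 measured, were past 2-fold lower in acinar than in solid tumor, where 2.55% of all genes were. ITGAM had 4.03 in the acinar tumor, 3.22 in the solid tumor, 0.805 in the mix culture and 0.889 in the single culture, and PTPRC had 1.4, 1.26, 0.644 and 0.8 in that order, while CD3E and CSF1R stayed below 1. The endothelial markers summed to at most 1.68. The part of these cells in the results was not tested. Host cells of a xenograft are of mouse, and no filter for mouse reads is given. Whether some mouse reads were counted under human symbols in the tumors, as for TIMP3, LUM or LYZ, was not tested.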

How the data were processed

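RNA was measured by sequencing in 4 libraries, 1 per group, grouped by the sample titles; the mix culture was taken to be that with CAFs. The library kit was TruSeq RNA, per the labels' protocols. The submitters' processing notes name the build hg19 and the tools Cuffdiff 2.2.1, TopHat2 2.0.13, SAMtools 1.0 and Bowtie2 2.2.3 (annotation, strand setting and filters: not given in the sources used here). As values, the authors deposited one table of signal values per gene and library, called raw signal per the file header. Per library, 89.9% to 91% of nonzero values were whole multiples, within 0.05, of a step taken as 1 fragment; the rest were fractional, so no count model was fitted.

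All values were divided by 8.94, which puts the mean library total at 1000000. Ratios were log2((value + 1)/(value + 1)), which understates differences of low genes, over genes that reached 1 in a library compared. Folds of single genes are plain ratios, with exact conditional binomial (Clopper-Pearson) intervals on whole fragments. Without molecular identifiers, fragments are not independent molecules, so intervals and limits cover counting error only. Exon lengths are unions of GENCODE 29 exons, an annotation of another build than hg19. The order of neighbouring genes is from RefSeq, over protein-coding genes only. The ratio and interval steps were tested on simulated data. Named are all members past 2-fold in a comparison, the 5 highest per kilobase in each family, 14 members of prior interest (MMP1, MMP2, MMP7, MMP9, MMP14, ADAM9, ADAM10, ADAM17, ADAM19, ADAMTS1 and the TIMPs), and up to 3 genes per list, comparison and direction. Other members named, the role groups, the neighbouring runs and the promoters printed were chosen after their values were seen. Some genes of the lists are not reported here. The members and lists were chosen with earlier results of these data known. Python 3.11.15, pandas 2.3.3, numpy 2.4.6, scipy 1.17.1 and matplotlib 3.10.9 were used. Alternatives tried were other pseudocounts, filters and scalings, and leaving out fractional values.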

Additional observations from a re-analysis of the deposited data

How the results depend on the processing

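The limits are the absent replicates, the unknown assignment of fractional fragments and the depth, which leaves genes near 1 scaled count resting on few fragments. With 0.1 added in place of 1, the members past 2-fold were 7 higher (with ADAMTS15, MMP16 and MMP25) and 1 lower (MMP14) in acinar over solid tumor, against 4 and 0, and 8 higher in tumors over cultures (with ADAMTS16, MMP1 and MMP10), against 5. With 5 added, 2 members (ADAM19 and MMP2) were past 2-fold higher in the acinar tumor and 0 lower in the mix culture, against 4 and 2. A filter of 5 scaled counts left 1 member lower in the mix culture (MMP7). No member was past 2-fold higher in the mix culture under any of these settings. The other counts of members stayed within 1.5 times; scaling each library to the same total added ADAM28 to those lower in the mix culture (3) and ADAM9 to those lower in tumors (11), and leaving out fractional values removed MMP24 from those higher in tumors (4). Of 507 log2 ratios of named members under these alternatives, 19 were counted as moved, and 0 of those past 2-fold changed sign. The 488 not counted as moved include low genes that crossed the 2-fold limit. MMP16 in acinar over solid tumor went from 0.99 to 2.12 with 0.1 added. ADAMTS6 in mix over single culture went from -1.05 to -0.40 with 5 added. Over all genes, adding 0.1 or 5 gave 478 or 114 genes higher in acinar over solid tumor (277 with 1 added), 692 or 101 lower (357), 192 or 33 higher in mix over single culture (92) and 522 or 73 lower (234); adding 5 gave 864 higher and 774 lower in tumors (1408 and 1197), and the filter of 5 gave 203 lower in the acinar tumor. No paired analysis was possible because each group has 1 library.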
